A study of Mus musculus with 18 samples.

Results

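The genes described here are the 10 genes of polyamine synthesis and turnover named Odc1, Amd1, Srm, Sms, Sat1, Smox, Paox, Oaz1, Oaz2 and Azin1. They were chosen by symbol, as the enzymes that make, acetylate and oxidise polyamines together with the antizymes and the antizyme inhibitor, out of 18204 genes in the table. All 10 were found, and all 10 passed the expression filter that left 16383 genes to test. The samples were J774.1 cells, a mouse macrophage tumour line, sequenced as whole cultures. Cells were either wildtype or lacked both C-terminal binding proteins, CTBP1 and CTBP2 (dKO). Each genotype received a vehicle (PBS/DMSO), 1.5 mM MTOB (4-methylthio-2-oxobutanoate) or 250 µM 4-Cl-HIPP (a chlorophenyl hydroxyimino acid) for 4 h, with 3 replicates in each of the 6 groups. MTOB and 4-Cl-HIPP both occupy the dehydrogenase pocket of CTBPs, and the design asked whether their effects need CTBPs. Both inhibitors were compared with the same vehicle samples. The dKO cells were grown out from single cells after Cas9 editing, so a difference made by the loss of CTBPs and a difference between clones cannot be told apart.

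Polyamines are small positively charged molecules that bind nucleic acids and are needed for growth. Ornithine decarboxylase (Odc1) makes putrescine from ornithine, and S-adenosylmethionine decarboxylase (Amd1) makes the aminopropyl donor that spermidine synthase (Srm) and spermine synthase (Sms) add to it. Each of these additions releases methylthioadenosine, which methionine salvage turns back into methionine through MTOB, its last intermediate. Spermidine/spermine acetyltransferase (Sat1) and polyamine oxidase (Paox) degrade polyamines in sequence, and spermine oxidase (Smox) acts on spermine directly. Antizymes (Oaz1, Oaz2) bind ornithine decarboxylase and send it to the proteasome, and antizyme inhibitor (Azin1), an inactive relative of the enzyme, binds the antizymes in its place. In macrophages, ornithine from arginase feeds the pathway.

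In short, MTOB raised Odc1 and Smox in wildtype cells, and the rise of Odc1 was smaller in dKO cells. Sat1 and Amd1 were lower in dKO than in wildtype cells whatever the treatment. No member passed the test with 4-Cl-HIPP. The promoters of the 4 genes named first are shown because the calls rest on them. They run from 250 bases before to 50 bases after the start of the RefSeq transcript, 5′ to 3′ on the strand of the gene, and are taken from a RefSeq table of build GRCm38.p6. Each matched the mouse build GRCm39 once on its chromosome. Capitals mark matches, on either strand, to any of the 5 motifs searched.
Odc1, plus strand, chr12:17594624-17594923: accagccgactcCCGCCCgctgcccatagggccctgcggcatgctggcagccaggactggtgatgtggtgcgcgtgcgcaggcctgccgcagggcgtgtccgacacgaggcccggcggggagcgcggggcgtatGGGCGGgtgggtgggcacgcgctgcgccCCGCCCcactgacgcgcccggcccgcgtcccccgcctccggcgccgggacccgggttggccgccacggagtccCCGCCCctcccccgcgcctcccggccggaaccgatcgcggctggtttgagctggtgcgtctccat
Smox, plus strand, chr2:131333532-131333831: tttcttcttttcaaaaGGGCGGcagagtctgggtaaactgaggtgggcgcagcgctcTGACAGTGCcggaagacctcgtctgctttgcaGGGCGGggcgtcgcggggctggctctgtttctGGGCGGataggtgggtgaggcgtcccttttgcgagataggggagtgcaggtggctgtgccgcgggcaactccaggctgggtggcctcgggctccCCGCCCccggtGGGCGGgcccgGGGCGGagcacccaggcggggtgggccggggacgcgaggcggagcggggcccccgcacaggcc
Sat1, minus strand, chrX:153999396-153999695: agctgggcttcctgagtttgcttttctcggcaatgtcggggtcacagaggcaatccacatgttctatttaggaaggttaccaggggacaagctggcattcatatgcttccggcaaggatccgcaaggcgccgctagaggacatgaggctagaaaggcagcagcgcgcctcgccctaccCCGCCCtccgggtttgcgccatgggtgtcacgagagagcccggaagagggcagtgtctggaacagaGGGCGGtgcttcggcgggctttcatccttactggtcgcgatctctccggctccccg
Amd1, minus strand, chr10:40178135-40178434: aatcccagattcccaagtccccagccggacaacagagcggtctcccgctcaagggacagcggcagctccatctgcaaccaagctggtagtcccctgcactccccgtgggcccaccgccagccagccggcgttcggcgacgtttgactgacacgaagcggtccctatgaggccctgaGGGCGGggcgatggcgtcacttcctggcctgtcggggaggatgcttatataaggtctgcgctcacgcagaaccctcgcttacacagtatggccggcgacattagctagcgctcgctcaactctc
The GC box (GGGCGG) occurred 4 times in the Odc1 window, 6 times in that of Smox, 2 times in that of Sat1 and 1 time in that of Amd1, and 35.7% of the 32851 promoters in the same table held at least one. How often it recurred within other promoters was not counted. G and C made up 78.0% of the Odc1, 71.0% of the Smox, 60.3% of the Sat1 and 63.0% of the Amd1 window. The Smox window also held TGACAGTGC, a match to the antioxidant response element core TGACNNNGC, which 12.4% of promoters held. None of these 4 windows held the E-box CACGTG (7.15% of promoters), the C/EBP-ATF response element TGATGNAAN (3.95%) or the TATA box TATAAA (13.6%). The matches are letters in a window, not sites. Only these patterns were searched, so a variant such as the tatataa in the Amd1 window was not counted. Sequence outside the windows was not searched, so a motif elsewhere in these genes could not be seen. The Odc1 and Smox windows lie inside the annotated gene spans, which start at 17594383 and 131333416. Of the 10 genes, 8 had a promoter in the table, and Srm and Azin1 did not.

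Expression is given as TPM, transcript abundance corrected for length and scaled to a fixed total per library, so that levels can be compared between genes. Column sums lay between 999766 and 999897, so the depth of each library is unknown. Pearson correlations between replicates, over tested genes on the log2(TPM + 1) scale, were 0.983 to 0.987, and no library stood apart. As a check of the genotype labels, Ctbp1 was lower in dKO cells by 2.90 to 3.13 on the log2 scale under the 3 treatments, and Ctbp2 transcript by 0.28 to 0.33, each with an adjusted p from limma of at most 0.00427. All 9 macrophage markers were tested and their summed level was 2397 to 3493 TPM, against 0.167 to 2.35 TPM for the 6 of 14 markers of other cell types that were rows of the table. Differences are on the log2(TPM + 1) scale with standard errors (SE) from a limma fit over all 18 samples, and p-values were adjusted over the 16383 genes by the Benjamini-Hochberg method. Since nothing in the labels says that replicates came from separate cultures, the p-values measure the spread between these samples.

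Under vehicle the members spanned a wide range. In wildtype cells Oaz1 (510 ± 58.6 TPM, SD, n = 3) and Odc1 (477 ± 12.3) stood highest, followed by Srm (362 ± 8.15). Sms (129.6 ± 3.43), Amd1 (123 ± 3.37) and Sat1 (100.1 ± 2.66) formed a middle group. Azin1 (74.5 ± 10.3) and Oaz2 (67.3 ± 6.12) came next, and Smox (27.4 ± 3.19) and Paox (3.56 ± 0.943) were lowest. Oaz1 and Odc1 overlapped between samples, as did Azin1 and Oaz2, while the remaining neighbours in this order did not. The authors' mean normalized count over all samples was 32.3 for Paox and 270.4 or more for each of the other 9 genes, so Paox was the least precisely measured. In dKO cells under vehicle Odc1 came first (458 ± 10.8 TPM) beside Oaz1 (456 ± 18.5), and Sat1 (66.7 ± 2.65) stood below Azin1 (90.6 ± 11.9). Reads of Oaz1 could be split with its copy Oaz1-ps, left out of this order. The copy had means of 301 TPM in wildtype and 289 TPM in dKO vehicle samples. The place of Oaz1 beside Odc1 therefore holds for its own row only.

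**Figure D1:**
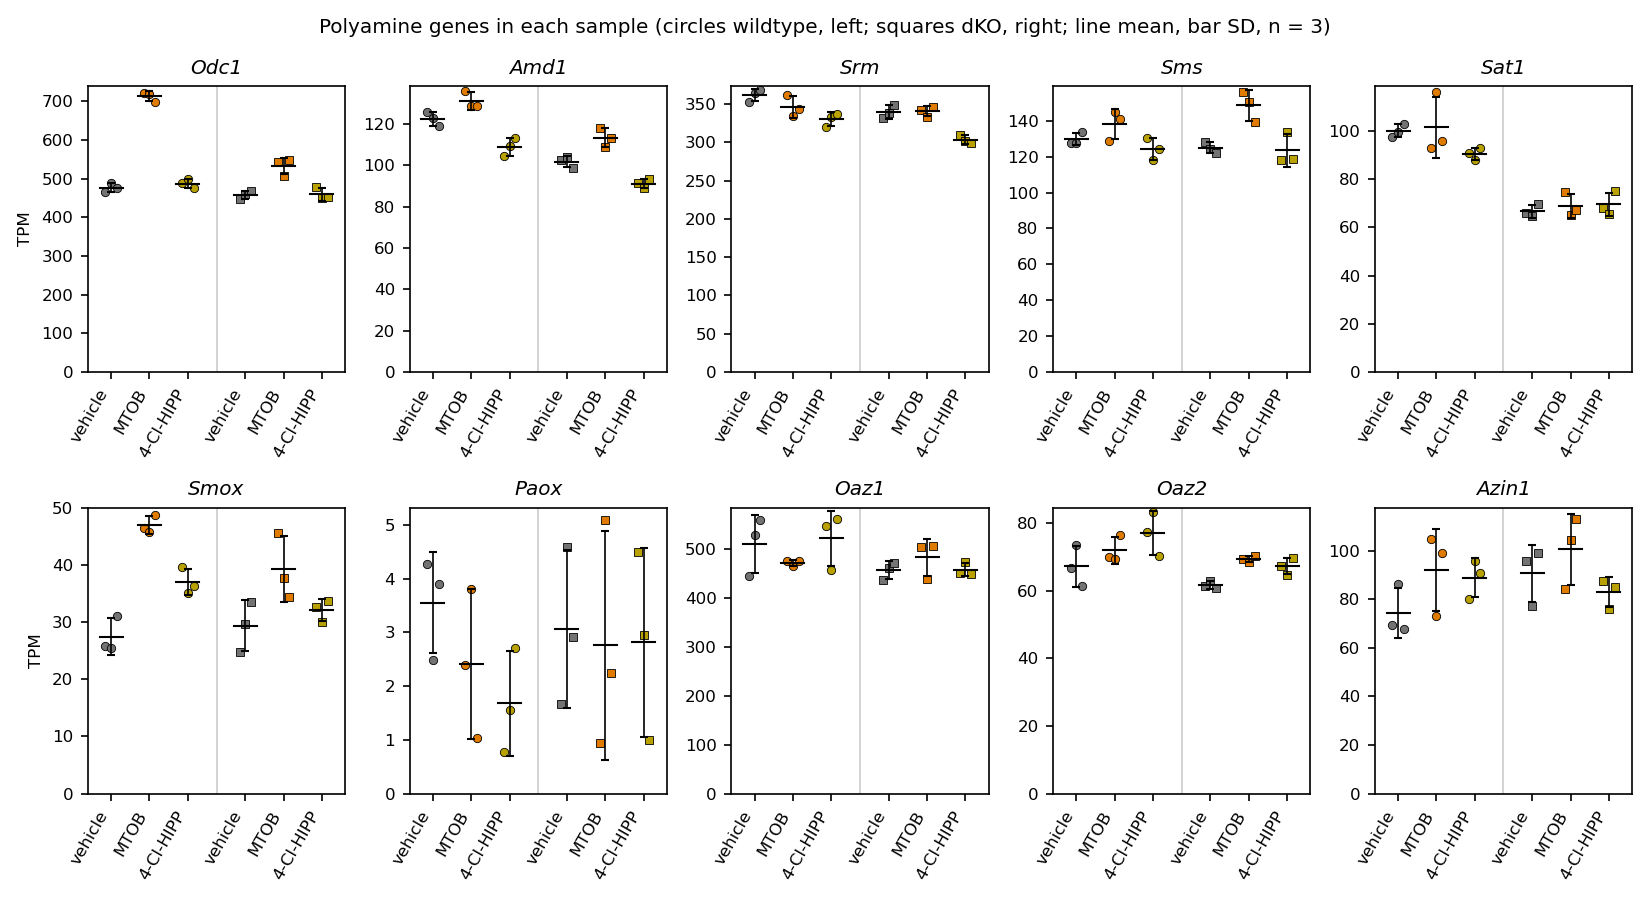
TPM (vertical axes) of each of the 10 genes in the 18 samples, 1 panel a gene, with a point for each sample, the group mean as a line and the SD as an error bar. Odc1 stood at 699 to 722 TPM in the 3 wildtype samples with MTOB and at no more than 548 TPM in the other samples, and Sat1 was at or below 75.0 TPM in all dKO samples.

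With MTOB, 2 of the 10 members rose and none fell in wildtype cells, against 7.26% of all tested genes called in either direction and 3.80% called higher. In dKO cells 4 of 10 rose and none fell, against 6.58% of all genes called and 3.04% called higher. That count was 1 without the second dKO vehicle or the first dKO MTOB sample, and 0 when only the compared groups were fitted. The median difference of the members was 0.09 in wildtype and 0.15 in dKO cells on the log2 scale, and that of all tested genes was -0.01 in both. An unadjusted limma p below 0.05 was reached by 3 members in wildtype cells (Odc1, Amd1, Smox), beside 3008 of all genes. In dKO cells 5 members did (Odc1, Amd1, Sms, Smox, Oaz2), beside 3118 of all genes. With 4-Cl-HIPP, 0 of 10 members passed in either genotype by limma, where 0.366% of all genes were called in wildtype and 0.501% in dKO cells. At an unadjusted p below 0.05 the same fits counted 4 members in wildtype cells (Amd1, Srm, Smox, Oaz2) and 2 in dKO cells (Amd1, Srm), beside 1341 and 1388 of all genes. No difference of the 4-Cl-HIPP effect between genotypes passed for any of the 10 members or for any of the 16383 genes (0% called by limma), with 0 members and 734 genes at an unadjusted p below 0.05. The doses of the inhibitors differ, so their values stand side by side and were not tested against each other.

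Between genotypes, members passed in one direction only, lower in dKO cells. These were 2 of 10 under vehicle (10.7% of all genes called, 3.72% called lower), 3 of 10 under MTOB (11.2% and 4.18%) and 3 of 10 under 4-Cl-HIPP (10.2% and 3.63%). The members' median difference between genotypes was -0.10 under vehicle, -0.04 under MTOB and -0.15 under 4-Cl-HIPP on the log2 scale, while the medians over all genes were 0.01, 0.00 and 0.00. Macrophage markers also differed between genotypes, in both directions. Under vehicle 3 of 9 were higher in dKO cells (Itgam, Cd68, Fcgr1) and 2 lower (Adgre1, Cd14), under MTOB 2 and 3, and under 4-Cl-HIPP 3 and 3. Under vehicle Cd14 stood at 458 TPM in wildtype and 143 TPM in dKO cells, and Itgam at 15.8 and 47.9 TPM (group means). Of the 5 tested markers of other cell types, Pecam1 was higher in dKO cells under all 3 treatments, with each TPM value at 1.43 or below (under vehicle, log2 difference 1.10, limma adjusted p 0.000123), and the others passed under none. The part of these markers in the members' differences was not tested. These cultures are bulk samples, in which fewer cells expressing a gene and less RNA of it per cell cannot be told apart.

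Odc1 (ENSMUSG00000011179, chromosome 12, 17594383 to 17601507, plus strand, 12 exons) encodes the first and usually limiting enzyme of the pathway. In wildtype cells it read 464, 489 and 477 TPM under vehicle and 722, 719 and 699 TPM with MTOB. The groups did not overlap, as for 22.6% of all genes in this comparison. The mean rose by 49.6%, a log2 difference of 0.58 (SE 0.04, adjusted p from limma 3.67e-08), which placed Odc1 at rank 27 of all genes by p.

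In dKO cells Odc1 read 447, 459.6 and 468 TPM under vehicle and 542, 508 and 548 TPM with MTOB. Here too the groups did not overlap (21.0% of all genes), but the rise was 16.2%, a log2 difference of 0.22 (SE 0.04, limma adjusted p 0.00130). With the spread taken from these 6 samples alone the adjusted p was 0.0684. With 4-Cl-HIPP the wildtype samples read 489, 498 and 475 TPM and the dKO samples 479, 449 and 452 TPM, and both sets overlapped their vehicle samples. The 95% intervals of these differences ran from -0.04 to 0.11 and from -0.07 to 0.08 on the log2 scale.

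The difference between the MTOB effects in the 2 genotypes was tested itself. For Odc1 the effect in dKO cells was lower than in wildtype cells by 0.36 on the log2 scale (SE 0.05, 95% interval -0.47 to -0.26, limma adjusted p 0.00885). Odc1 was the only member of 10 to pass this test, and 15 of all genes (0.0916%) did. By p it ranked 5 of 16383. The call was kept in 12 of 12 fits that left out 1 sample of the 4 groups, with adjusted p between 0.0117 and 0.0392, and was lost without the variance trend (adjusted p 0.102). For Smox the same difference was -0.35 (95% interval -0.70 to -0.01, limma adjusted p 0.722), so its MTOB effect was not shown to differ between genotypes. Under vehicle Odc1 did not pass between genotypes (-0.06, limma adjusted p 0.409), whereas under MTOB it was lower in dKO cells by 0.42 (SE 0.04, limma adjusted p 6.09e-07). The summed level of the macrophage markers also rose with MTOB. It was 2772 to 2862 TPM in wildtype vehicle samples and 3318 to 3493 TPM with MTOB. In the corresponding dKO samples it was 2514 to 2582 and 2605 to 2927 TPM. With MTOB, 4 of the 9 markers rose in wildtype cells (Adgre1, Cd68, Lyz2, Cd14) and 3 in dKO cells (Lyz2, Spi1, Cd14). Of all genes, 3.80% and 3.04% were called higher. No marker fell past the test, although Csf1r went from a mean of 896 to 769 TPM in wildtype and from 860.2 to 758 TPM in dKO cells. Adgre1, the marker F4/80, changed most in wildtype cells, from 29.1 ± 5.55 to 102 ± 4.43 TPM (SD, n = 3), and went from 8.93 ± 1.04 to 12.6 ± 1.12 TPM in dKO cells. For none of the 9 markers did the MTOB effect itself pass between genotypes by limma. At an unadjusted limma p below 0.05 the same test counted 4 of the 9 (Adgre1, Lyz2, Cd14, Fcgr1), beside 1128 of 16383 genes. The part of these markers in the Odc1 result was not tested.

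**Figure D2:**
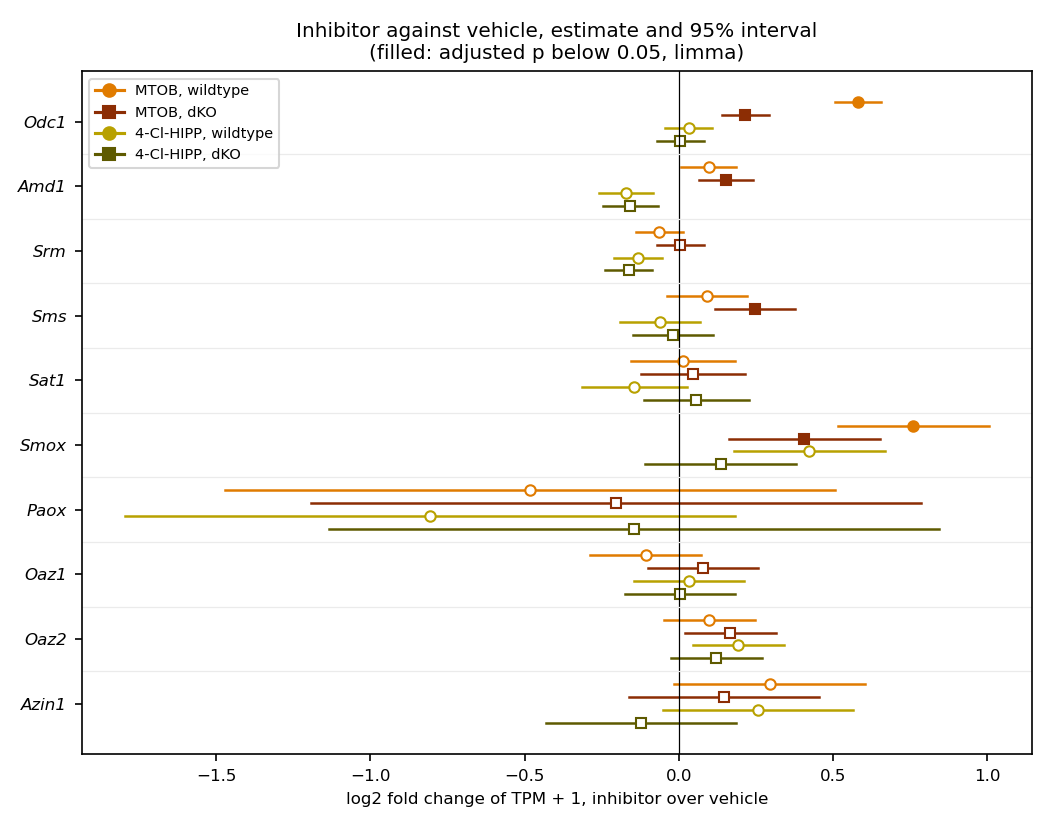
Log2 differences of each inhibitor from vehicle (horizontal axis, log2(TPM + 1) scale, points with 95% intervals) for the 10 genes in wildtype and dKO cells. Odc1 with MTOB lay at 0.58 in wildtype and 0.22 in dKO cells with intervals that did not meet, and the intervals of Odc1 with 4-Cl-HIPP included 0 in both genotypes.

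Amd1 (ENSMUSG00000075232, chromosome 10, 40162797 to 40178185, minus strand, 8 exons) was lower in dKO cells under every treatment. Under vehicle it read 126, 123 and 119 TPM in wildtype and 103, 104 and 98.7 TPM in dKO cells. The groups did not overlap, as for 26.1% of all genes, and the log2 difference was -0.27 (SE 0.04, limma adjusted p 0.000375). Under MTOB it read 136, 129 and 129 TPM in wildtype against 118, 109 and 113 TPM in dKO cells, and under 4-Cl-HIPP 104, 109 and 113 TPM against 91.3, 88.9 and 93.3 TPM. Neither pair of groups overlapped, and the limma differences were -0.21 (adjusted p 0.00293) and -0.25 (adjusted p 0.000624). The MTOB value alone lost its call when the spread came from those 6 samples (adjusted p 0.0594). Within dKO cells MTOB raised Amd1 by 0.15 (SE 0.04, limma adjusted p 0.0368), but this call was kept in only 1 of 6 fits that left out a sample, namely the fit without the second dKO MTOB sample. In wildtype cells the MTOB samples also lay above all vehicle samples, where 22.6% of all genes had groups that did not overlap. That difference did not pass. With 4-Cl-HIPP Amd1 was below vehicle in every sample of both genotypes, with differences of -0.17 and -0.16 and limma adjusted p of 0.122 and 0.145.

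Of the aminopropyl transferases, Sms passed the test with MTOB in dKO cells, and Srm passed with neither inhibitor. Srm (ENSMUSG00000006442, chromosome 4, 148675940 to 148681792, plus strand) read 353, 364 and 368 TPM under vehicle, 362, 334 and 343 TPM with MTOB and 319.8, 333 and 337 TPM with 4-Cl-HIPP in wildtype cells. In dKO cells it read 332, 338 and 349 TPM, then 342, 333 and 346 TPM, then 310.0, 301 and 299 TPM in the same order. The 4-Cl-HIPP samples lay below all vehicle samples in both genotypes, where 12.6% of all genes in wildtype and 13.7% in dKO cells had groups that did not overlap. The differences were -0.13 (limma adjusted p 0.193) and -0.16 (limma adjusted p 0.0624), and the second passed after rescaling by median ratios (adjusted p 0.0489) and without the first wildtype MTOB sample. Srm was also lower in dKO than in wildtype cells under 4-Cl-HIPP, by 0.12 (SE 0.04, limma adjusted p 0.0435), and kept that call in 1 of 6 fits that left out a sample, the fit without the first wildtype 4-Cl-HIPP sample, and in 5 of 10 other settings.

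Sms (ENSMUSG00000071708, X chromosome, 156226848 to 156275317, minus strand) read 128, 124 and 122 TPM under vehicle and 156, 150.3 and 139 TPM with MTOB in dKO cells. The groups did not overlap and the difference was 0.25 (SE 0.06, limma adjusted p 0.0233). The call was kept in 2 of 6 fits that left out a sample and lost without either the second or the third vehicle sample or the first or the second MTOB sample. In wildtype cells Sms read 128, 128 and 134 TPM under vehicle and 129, 145 and 141 TPM with MTOB, and the groups overlapped (0.09, limma adjusted p 0.495). With 4-Cl-HIPP it lay between 118 and 134 TPM in the 6 samples of both genotypes.

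Sat1 (ENSMUSG00000025283, X chromosome, 153996128 to 153999452, minus strand, 6 exons) encodes the acetyltransferase that opens polyamine breakdown, and differed more between genotypes than any other member under vehicle. It read 97.6, 99.7 and 103 TPM in wildtype and 65.8, 64.6 and 69.7 TPM in dKO cells, a fall of 33.3% in the mean. The log2 difference was -0.58 (SE 0.08, limma adjusted p 0.000115). Under MTOB the values were 92.7, 116 and 95.9 TPM against 74.5, 65.2 and 67.2 TPM, and under 4-Cl-HIPP 90.7, 87.9 and 92.8 TPM against 67.9, 65.7 and 75.0 TPM. The genotypes did not overlap under either inhibitor, as for 23.5% and 25.2% of all genes, and the differences were -0.55 (limma adjusted p 0.000191) and -0.38 (limma adjusted p 0.00494). All 3 calls were kept in 6 of 6 fits that left out a sample. Neither inhibitor changed Sat1 past the test in either genotype. The 4 differences from vehicle lay between -0.14 and 0.06, with 95% intervals that together ran from -0.31 to 0.23.

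**Figure D3:**
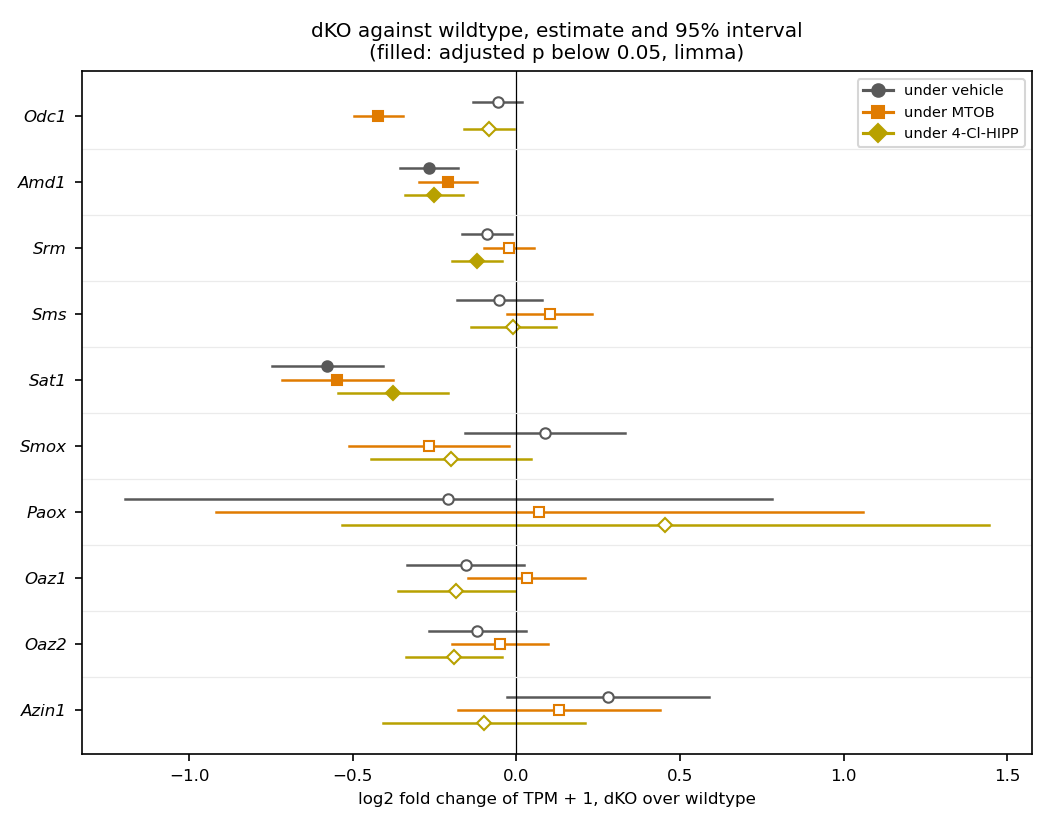
Log2 differences of dKO from wildtype cells (horizontal axis, log2(TPM + 1) scale, points with 95% intervals) for the 10 genes under vehicle, MTOB and 4-Cl-HIPP. Sat1 and Amd1 lay below 0 under all 3 treatments, and Odc1 was at -0.42 under MTOB against -0.06 under vehicle and -0.08 under 4-Cl-HIPP.

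Smox (ENSMUSG00000027333, chromosome 2, 131333416 to 131368431, plus strand, 7 exons) encodes the oxidase that turns spermine into spermidine, and had the larger rise of the 2 genes called in wildtype cells. It read 25.8, 25.4 and 31.1 TPM under vehicle and 46.5, 45.7 and 48.8 TPM with MTOB. The mean was 1.71-fold higher and the log2 difference 0.76 (SE 0.11, limma adjusted p 0.000526). Smox was the only member whose fitted change also exceeded 1.5-fold, with 2.01% of all genes doing so in this comparison. In dKO cells it read 24.7, 29.7 and 33.6 TPM under vehicle and 45.6, 37.6 and 34.4 TPM with MTOB, where the groups did not overlap by a narrow margin. That difference was 0.41 (SE 0.11, limma adjusted p 0.0466), and the call was lost in 4 of 6 fits that left out a sample, those without the first or the second sample of either group. With 4-Cl-HIPP the wildtype samples read 39.6, 35.1 and 36.3 TPM, all above vehicle and below MTOB, a difference from vehicle of 0.42 that did not pass (95% interval 0.18 to 0.67, limma adjusted p 0.193). In dKO cells they read 32.6, 30.0 and 33.7 TPM and overlapped the vehicle samples.

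Paox (ENSMUSG00000025464, chromosome 7, 139695712 to 139717169, plus strand) encodes the oxidase for acetylated polyamines and read between 0.772 and 5.10 TPM in the 18 samples. It passed no test, but its intervals were wide. In wildtype cells with 4-Cl-HIPP it read 0.772, 1.56 and 2.71 TPM against 4.27, 2.49 and 3.91 TPM under vehicle, and the 95% interval of the difference ran from -1.80 to 0.18 on the log2 scale. Paox shares 142 exonic bases with Echs1 on the opposite strand, and Echs1 stood at 26.9 ± 3.08 TPM (SD, n = 3) in wildtype vehicle samples. The libraries did not record strand, so reads of the shared stretch cannot be told apart.

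The regulators of ornithine decarboxylase passed no test in any comparison. Oaz1 (ENSMUSG00000035242, chromosome 10, 80662516 to 80665124, plus strand) read 444, 527 and 558 TPM under vehicle and 474, 464 and 475 TPM with MTOB in wildtype cells, a difference of -0.11 (95% interval -0.29 to 0.07, limma adjusted p 0.577). Oaz2 (ENSMUSG00000040652, chromosome 9, 65575283 to 65597582, plus strand) read 66.6, 73.7 and 61.5 TPM and then 70.0, 69.4 and 76.6 TPM (0.10, 95% interval -0.05 to 0.25). Azin1 (ENSMUSG00000037458, chromosome 15, 38487539 to 38519785, minus strand) read 69.2, 86.3 and 67.8 TPM and then 105, 72.9 and 98.8 TPM. Its groups overlapped through the second MTOB sample, and the difference was 0.29 (95% interval -0.01 to 0.60, limma adjusted p 0.301). In dKO cells Oaz1 lay between 436 and 505 TPM, Oaz2 between 60.8 and 70.5 TPM and Azin1 between 75.8 and 113 TPM over the 9 samples. With 4-Cl-HIPP Oaz2 read 77.4, 83.3 and 70.3 TPM in wildtype and 67.4, 64.8 and 69.7 TPM in dKO cells, a genotype difference of -0.19 (limma adjusted p 0.108) that passed only without the third wildtype sample.

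Antizyme transcripts were lower relative to those of their binding partners with MTOB in wildtype cells, where Odc1 rose and neither antizyme passed the test. The ratio of summed Oaz1 and Oaz2 to summed Odc1 and Azin1 TPM was 0.958, 1.04 and 1.14 under vehicle and 0.658, 0.674 and 0.691 with MTOB. In dKO cells it was 0.917, 0.977 and 0.938 under vehicle and 0.915, 0.829 and 0.871 with MTOB, so the MTOB samples lay below all vehicle samples in both genotypes but by a narrow margin in dKO cells. With 4-Cl-HIPP it was 1.09, 0.910 and 1.12 in wildtype and 0.913, 1.02 and 0.965 in dKO cells, overlapping vehicle in each. Oaz1-ps, a processed copy of Oaz1, was listed at group means of 257 to 301 TPM. When its TPM was added to the antizymes, a choice made after seeing the data, the mean ratio was 1.59 under vehicle and 1.04 with MTOB in wildtype cells and 1.47 and 1.28 in dKO cells. Odc1 is part of the ratio, and its mean went from 477 to 713 TPM with MTOB in wildtype cells. The ratio is therefore no separate result about the antizymes. It is also of transcripts only, since antizyme protein depends on a ribosomal frameshift that these data do not measure.

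**Figure D4:**
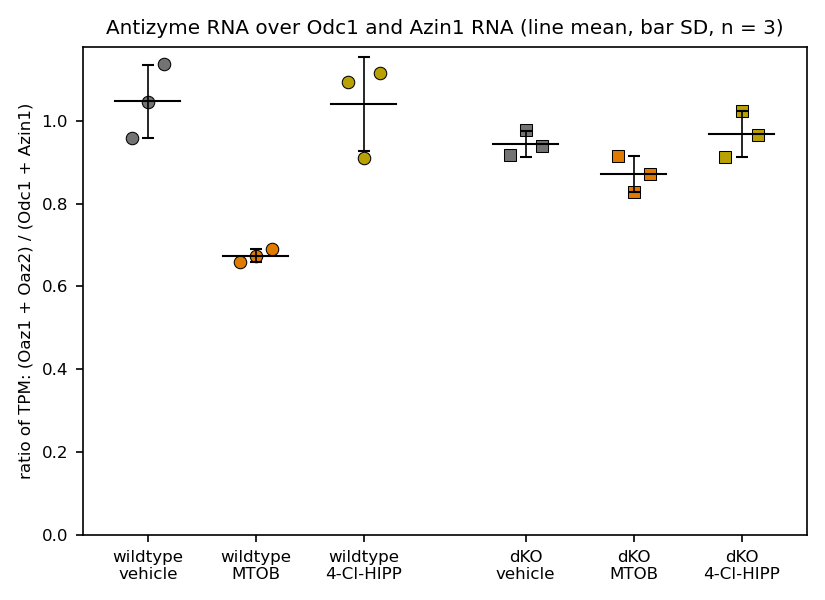
Ratio of summed Oaz1 and Oaz2 TPM to summed Odc1 and Azin1 TPM (vertical axis) in each of the 18 samples by group, with group means as lines and SD as error bars. The 3 wildtype MTOB samples sat between 0.658 and 0.691, below all the other samples, which sat at 0.829 or more.

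Amd1, Oaz1 and Sms have near-identical copies in the table, so reads could be split between rows. Group means were 11.1 to 15.8 TPM for Amd2 and 35.2 to 50.4 TPM for Sms-ps. Adding the copies to Amd1, Oaz1 and Sms, a choice made after seeing the data, changed no call among the members, and Sms with MTOB in dKO cells then differed by 0.20 (limma adjusted p 0.00263). Odc1 shares 225 exonic bases with an antisense transcript, Gm59592, and Smox shares 314 with Gm30679, neither of which is a row of the table. Without strand, antisense reads from these stretches could have counted for Odc1 or Smox. Among other overlaps, Sat1 shares 135 exonic bases with a coding gene on its own strand that is not a row. Azin1 shares 756 with the antisense Gm49077, which is a row.

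Related pathways were counted in the same way, where 7.26% of all genes in wildtype and 6.58% in dKO cells were called with MTOB, and 3.80% and 3.04% were called higher. Of 10 further polyamine and ornithine enzymes listed, 8 were rows of the table and 6 were tested, and the arginase Arg1 was not a row. Of these 6, 1 rose in each genotype, the ornithine-forming arginase Arg2. It was listed at 0.351, 0.164 and 0 TPM under vehicle and 1.97, 1.19 and 1.73 TPM with MTOB in wildtype cells (limma adjusted p 0.00130). In dKO cells it was listed at 0, 0.484 and 0.348 TPM and then 1.63, 1.16 and 0.832 TPM (limma adjusted p 0.0225), and this call was lost without the first dKO vehicle sample or the first or the second MTOB sample, with a pseudocount of 0.1, with only the compared groups and with the replicate block within genotype. At so low a level its log2 difference depends on the pseudocount, from 0.36 with 5 to 2.89 with 0.1 in wildtype cells. Of 5 transport genes, 1 rose, Slc3a2, the heavy chain of several amino acid transporters, by 0.26 (limma adjusted p 0.0162) in wildtype and by 0.39 (limma adjusted p 0.00111) in dKO cells. The wildtype call was lost without the third sample of either group, and the dKO call with the spread from its 6 samples alone.

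In methionine salvage, 11 genes were tested and 1 rose and 2 fell with MTOB in wildtype cells, while 1 rose and 1 fell in dKO cells, beside the 7.26% and 6.58% of all genes called. The gene that rose in both was Bcat1, the cytosolic aminotransferase for branched-chain amino acids, which went from 115, 118 and 113 TPM to 136, 131 and 142 TPM in wildtype cells (0.24, limma adjusted p 0.000416). In dKO cells it went from 95.2, 97.3 and 95.2 TPM to 113, 113 and 116 TPM (0.25, limma adjusted p 0.000430). Bcat1 was lower in dKO cells under all treatments, by 0.26 under vehicle (limma adjusted p 8.92e-05). The 2 genes that fell in wildtype cells, Adi1 and Bcat2, kept their calls in 1 and 2 of 6 fits that left out a sample, and Got1 in dKO cells in 2 of 6. With 4-Cl-HIPP, Bcat1 in dKO cells was the single call over all these lists (-0.17, limma adjusted p 0.0423), and it was lost in 6 of 6 such fits. Hypusine formation, the use of spermidine to modify Eif5a, and S-adenosylmethionine supply had 0 of 3 genes each past the limma test in every comparison, with at most 1 gene of either list at an unadjusted p below 0.05.

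MYC proteins are known to drive Odc1 transcription, and 6 genes of their network were tested. Mycn was abundant and fell with MTOB, from 765, 819 and 786 TPM to 660.0, 636 and 691 TPM in wildtype cells (-0.25, limma adjusted p 0.000407) and from 725, 782 and 758 TPM to 622, 623 and 605 TPM in dKO cells (-0.29, limma adjusted p 0.000160). Its samples did not overlap in either genotype. Myc was at or below 0.804 TPM in every sample. With MTOB, 4 of the 6 genes had an unadjusted limma p below 0.05 in wildtype cells (Myc, Mycn, Mxi1, Mnt). In dKO cells 2 did (Mycn, Mnt), beside 3008 and 3118 of all genes, and only Mycn passed. Mean Myc in wildtype cells went from 0 to 0.411 TPM, Mxi1 from 55.5 to 48.6 TPM and Mnt from 15.8 to 13.8 TPM. The part of this network in the Odc1 result was not tested. Mnt, a repressor of MYC targets, was higher in dKO cells under vehicle by 0.37 (limma adjusted p 0.00237). Also under vehicle, Aldh18a1, which makes the precursor of ornithine and proline, was higher in dKO cells by 0.36 (limma adjusted p 0.0127) and the lysosomal polyamine exporter Atp13a2 by 0.33 (limma adjusted p 0.0325), and leaving out a sample ended the first call in 2 and the second in 4 of 6 fits. Between genotypes under vehicle these 2 genes and Mnt were the calls higher in dKO cells over the related lists, and Oat, ornithine aminotransferase, and Bcat1 were the calls lower. Oat differed by -0.20 and kept its call in 1 of 6 such fits.

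**Figure D5:**
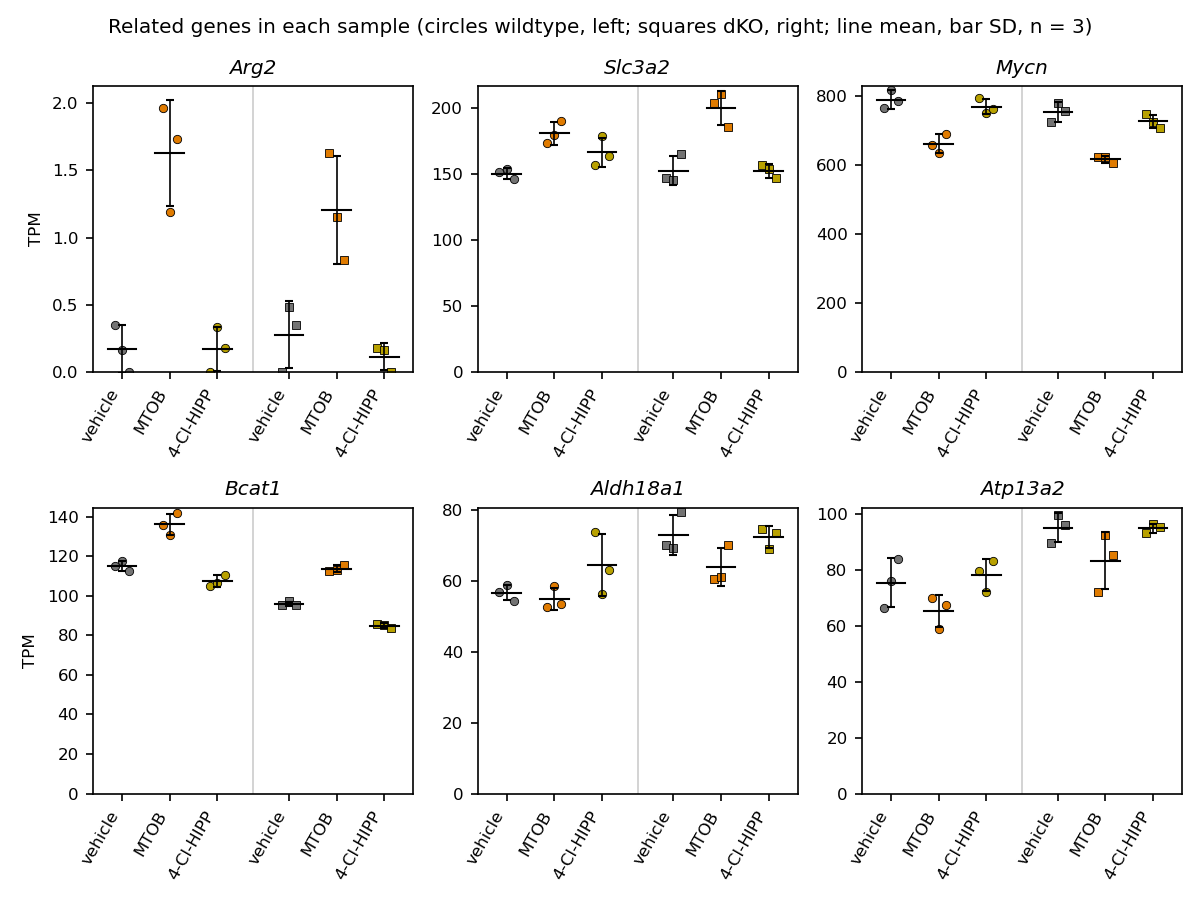
TPM (vertical axes) of Arg2, Slc3a2, Mycn, Bcat1, Aldh18a1 and Atp13a2 in the 18 samples, with a point for each sample, group means as lines and SD as error bars. Arg2, Slc3a2 and Bcat1 were higher and Mycn lower with MTOB in both genotypes.

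As a description, the genes whose log2(TPM + 1) followed Odc1 most closely over the 18 samples, of 9708 with a mean of at least 5 TPM, were Siglece (Pearson r = 0.953), Ptpn7 (r = 0.950) and Lyz2 (r = 0.949). Those closest to Sat1 were Ly9 (r = 0.943), Cd52 (r = 0.941) and Spink5 (r = 0.940). The 18 points come from 6 groups and share libraries and treatment, so these values chiefly rank patterns across groups. Lyz2 is also one of the macrophage markers above. The summed TPM of the 10 members was 1778 to 1923 in wildtype vehicle samples, 2098 to 2139 with MTOB and 1819 to 1903 with 4-Cl-HIPP. In dKO cells the sums were 1695 to 1776, 1820 to 1938 and 1676 to 1708 TPM, so the MTOB samples exceeded every vehicle sample in both genotypes. These sums include Odc1, whose mean went from 477 to 713 TPM with MTOB in wildtype and from 458 to 533 TPM in dKO cells. They are therefore no separate result about the other members.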

How the data were processed

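RNA of 18 samples (6 groups of 3, grouped by the genotype and treatment in the labels) was sequenced from unstranded libraries. According to their methods, the authors quantified reads with Salmon 1.9.0 on the GRCm39 transcriptome, imported gene-level estimates with tximport and ran DESeq2 1.44.0. The deposited table held 18204 genes, with a TPM value per gene and library. Also deposited by the authors were a signal column, the normalized count averaged over all libraries, and 8 columns of their own log2 fold changes and adjusted p-values, which were not used. Read counts were not analysed here, so library depth is unknown.

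Genes were kept if that averaged count exceeded its 10th percentile (0.222). For these 16383 genes log2(TPM + 1) was fitted with 6 group means and a variance trend (limma 3.58.1, R 4.3.3). Calls required a Benjamini-Hochberg adjusted p below 0.05 over all genes tested, and changes above 1.5-fold were counted separately. The procedure was run on simulated data with planted changes of 1.5-fold or more, so that run does not cover the smaller differences called here. Members, related lists and tests were chosen with earlier results of these data known. All members were named, any related gene past the test could be named, and the 3 genes most like Odc1 and Sat1 were named by Pearson r. Alternatives were other pseudocounts, filters, scalings, fits and left-out samples. Locations are from the Gencode annotation of GRCm39, promoters from RefSeq, and figures were drawn with matplotlib 3.10.9.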

Additional observations from a re-analysis of the deposited data

Results flagged for a closer look

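The MTOB effect on Odc1 differed between the genotypes. In dKO cells it was smaller by 0.36 on the log2(TPM + 1) scale (value -0.36, SE 0.05, limma adjusted p 0.00885 by the Benjamini-Hochberg method), where the effect itself was 0.58 in wildtype and 0.22 in dKO cells. All 3 MTOB samples lay above all 3 vehicle samples in each genotype, so the genotypes differed in the size of the rise and not in its direction.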

How the results depend on the processing

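With MTOB in dKO cells 4 members passed, against 0 when only the compared groups were fitted, 2 without the variance trend, and 1 to 4 over the fits that left out 1 sample each. The lowest count, 1, came without the second dKO vehicle or the first dKO MTOB sample. With 4-Cl-HIPP in dKO cells the count of 0 became 1 (Srm) with median-ratio rescaling and ranged from 0 to 1 over the left-out samples. The MTOB effect that differed between genotypes was called for 1 member (Odc1) and for 0 without the variance trend. Same-numbered samples of a genotype correlated at -0.14 to 0.12 in their deviations from group means, and 3 of 18 samples correlated best with their own number. Across genotypes, 6 of 27 same-numbered pairs and 7 of 54 other pairs correlated above 0.1. With 3 samples in each group these correlations cannot settle whether replicate numbers mark shared batches. With the replicate block 2 members passed with MTOB in dKO cells, and with a replicate block within genotype 2 did. Odc1 and Sms were the members that kept this call without the variance trend and with either block. The cause of these changes was not tested. No call of a member changed direction under any alternative run. Of the 75 pairs of member and comparison that did not pass, 22 changed sign under some alternative and 4 passed under some alternative: Srm with 4-Cl-HIPP in dKO cells, Smox between genotypes under MTOB, and Oaz1 and Oaz2 between genotypes under 4-Cl-HIPP. TPM carry no depth, so counting error could not be given.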
